A study of Homo sapiens with 79 samples.

Results

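Retinal pigment epithelium (RPE) cells of human retinal organoids were selected on their reads for 8 pigment epithelium genes, BEST1, PMEL, TYRP1, RNASE1, DCT, TYR, MLANA and RPE65. A cell was taken where at least 3 of these genes had at least 5 reads each, and 175 of 1976 cells met the rule. The organoids were grown from H9 human embryonic stem cells, an established line that here carried a CRX-GFP reporter, and all shared a medium with foetal calf serum, thyroid hormone T3, taurine and retinoic acid. They were dissociated at day 60, 90 or 200 and captured on Fluidigm C1 chips, with 1 chip at day 60 (578 cells), 1 at day 90 (661 cells) and 2 at day 200, here called chips a (356 cells) and b (381 cells). cDNA was amplified with SMART-Seq v4 in chips made for cells of one size range, and no sort is described. The 79 column libraries held 3414268 to 7994770 reads each. All cells come from 1 line, and the number of organoids or cultures behind a chip is not given in the sources used here. Day and chip therefore cannot be told apart at days 60 and 90, and no test between days was made. The study also describes more spike-in RNA and a looser spike-in filter for day 90, and a lower read minimum for day 60. Their part in differences between days was not tested.

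The RPE is a single layer of pigmented epithelium behind the photoreceptors. It makes melanin, takes up shed outer segments, regenerates the visual chromophore in the retinoid cycle, and secretes factors towards both the retina and the choroid. It arises from the same optic vesicle as the neural retina, and the transcription factor MITF marks the pigmented side of that choice.

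The genes that make melanin are classical targets of MITF, which binds the letters TCATGTG, and for this reason the bases before the start of the pigment genes are shown. The 250 bases before each start were searched on both strands for TCATGTG, which contains the shorter CATGTG (RefSeq, GRCh38.p14). Of 17 genes of pigment synthesis and the melanosome, 13 had an entry, and 6 of these 13 held TCATGTG (DCT, GPNMB, GPR143, SLC24A5, TYR and TYRP1). Counted by gene in the same way, 3.11% of the 27305 genes with an entry held it. A gene can have several promoters in the table, and the 13 genes had 22. A match is a description of the letters only. PMEL, SLC45A2, RAB38 and MYO7A had no entry. Capitals mark the match, which in GPNMB and GPR143 is read as its reverse complement.
TYR, chr11:89177745-89177801, plus strand: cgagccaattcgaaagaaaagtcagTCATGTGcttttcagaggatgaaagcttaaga
TYRP1, chr9:12693215-12693271, plus strand: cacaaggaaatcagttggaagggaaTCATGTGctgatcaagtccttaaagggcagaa
DCT, chr13:94479786-94479842, minus strand: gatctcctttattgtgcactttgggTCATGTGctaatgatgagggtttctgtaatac
GPNMB, chr7:23246627-23246683, plus strand: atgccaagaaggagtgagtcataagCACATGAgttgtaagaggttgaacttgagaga
GPR143, chrX:9765877-9765933, minus strand: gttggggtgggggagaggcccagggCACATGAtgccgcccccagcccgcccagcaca

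RPE cells made up 1.21% of the day 60 cells (7 cells, exact 95% interval 0.488 to 2.48), 18.8% at day 90 (124 cells, 15.9 to 21.9) and 5.97% at day 200 (44 cells, 4.37 to 7.93). The 2 day 200 chips held 3.93% (14 cells, 2.17 to 6.51) and 7.87% (30 cells, 5.38 to 11.0). These intervals cover counting error only, not the spread between cultures. At day 90 the cells came from 19 of the 20 chip columns, with a median of 6 and a highest count of 12 in a column. Members had a median of 173839 reads at day 90, against 155324 in the other cells of that chip. A cell with more reads passes a fixed count of reads more easily, and with every cell thinned to 50000 reads the share was 14.0% at day 90, 3.39% at day 200 and 0.865% at day 60.

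**Figure D1:**
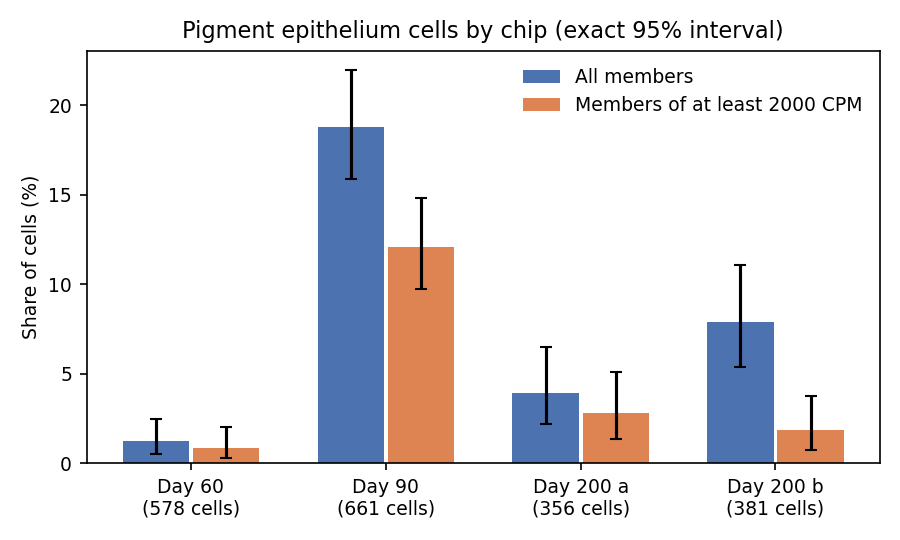
Share of the cells of each chip (%, bars from 0) that met the rule, for all members and for those whose 8 rule genes summed to at least 2000 CPM (the boundary between high and low level); error bars are exact 95% binomial intervals. Day 90 held the largest share by both counts (18.8% and 12.1%), while on day 200 chip b the second count was 1.84% against 7.87% by the first.

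The selected cells fell into a high and a low level of the rule genes. Levels are given as CPM, a gene's reads scaled to a fixed total of reads over all named genes. At day 90 the summed level of the 8 genes ran from 139 to 1951 CPM in 44 cells and from 3235 to 23561 CPM in the other 80, with no member between. A boundary of 2000 CPM, set after these values were seen, left 5 high-level cells at day 60 and 80 at day 90, with 10 and 7 on the day 200 chips a and b. On chip b 23 of the 30 cells were thus of low level, against 4 of 14 on chip a. The lowest high-level cell of chip b had 2169 CPM and the highest low-level one 1344 CPM, so the gap was narrower there. Among cells that did not meet the rule, 12 of 1801 passed 2000 CPM. Just inside the rule, the 49 cells with exactly 3 rule genes had a median of 390 CPM. Just outside it, the 116 cells with exactly 2 had a median of 362 CPM.

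SERPINF1, TIMP3, ENPP2, SFRP1 and COL8A1, which the rule did not use, followed the same division. They stand on the list of RPE genes that the study drew from these same samples, so they are no independent evidence of the label. At least 4 of these 5 genes had at least 5 reads in 76 of the 80 high-level cells at day 90, in 29 of the 44 low-level cells and in 11 of the 537 other cells. On chip b this held for 6 of 7 high-level cells and for 5 of 23 low-level cells. On chip a it held for 7 of 10 and for 0 of 4, and at day 60 for 3 of 5 and for 0 of 2. MITF reads were found in 77 of the 80 high-level cells at day 90 and in 29 of the 44 low-level ones. In the other cells of that chip, 20.3% had an MITF read.

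**Figure D2:**
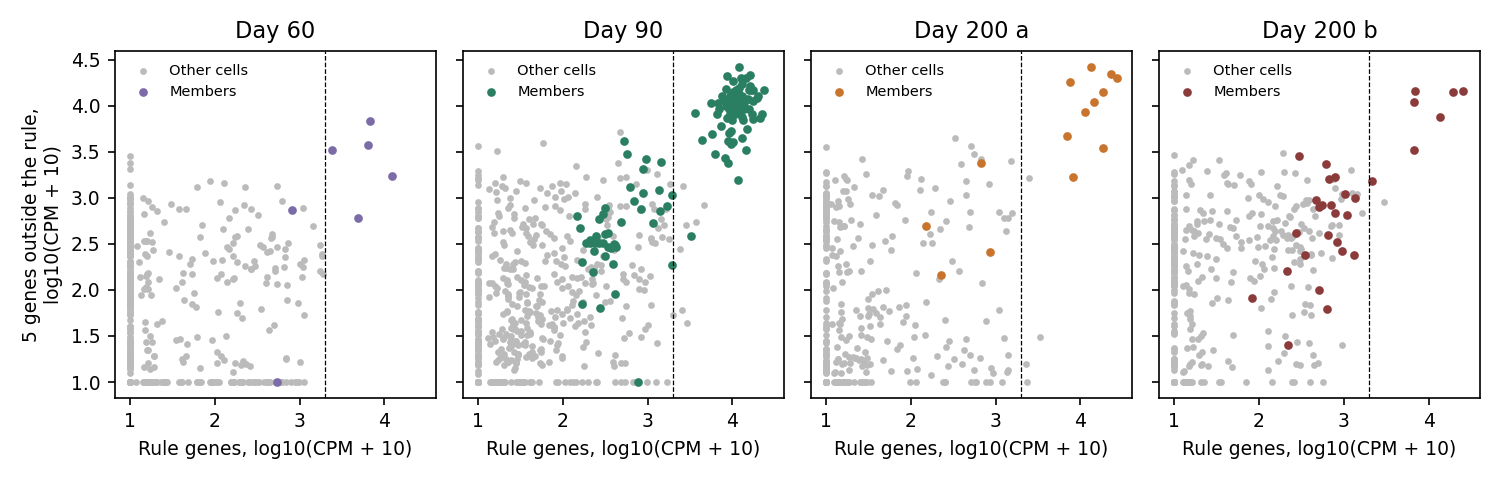
Each point is a cell of the named chip; the x axis is the summed level of the 8 rule genes and the y axis that of SERPINF1, TIMP3, ENPP2, SFRP1 and COL8A1, both as log10(CPM + 10), and the dashed line marks 2000 CPM. At day 90, 80 members lie right of the line, most of them high on both axes, and on chip b 23 of the 30 members lie left of it.

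Genes of other cell types were read in part of the members, and the difference between levels was not tested. At least 3 photoreceptor genes had at least 5 reads in 10 of the 23 low-level cells of chip b (exact 95% interval 23.2 to 65.5%), and in 0 of the 7 high-level ones. The share among the other cells of that chip was 22.2%. At least 3 mesenchyme genes passed in 9 of these 23 cells and in 0 of the 7. Single genes of that list were also common outside the members. A COL1A2 read was found in 73.9% of these 23 cells and in 66.1% of the other cells of chip b. For COL3A1 the shares were 65.2% and 51.9%. At day 90 the photoreceptor count was 16 of 44 low-level and 17 of 80 high-level cells, and the mesenchyme count 12 of 44 and 14 of 80. No share of other cells stands beside the mesenchyme and day 90 counts, so they are not read as traits of the members. The doublet caller scrublet marked 4 of the 14 cells of chip a (3 of them high-level), and 0 of the members on each other chip. Of the 342 other cells of chip a it marked 20 (5.85%). The marked cells were kept in the chip a values below. Columns of a chip share a set of 40 cell barcodes by design. Across the 20 day 90 columns the rule-gene level outside the high-level cells, which ranged from 89.2 to 514 CPM, had a Spearman correlation of -0.03 with the reads that the high-level cells of the column brought. The same correlation was 0.057 at day 60, and 0.12 and 0.21 on chips a and b. The numbers of low-level and high-level cells per column had a Spearman correlation of 0.38 at day 90, 0.60 on chip a, 0.13 on chip b and -0.20 at day 60. The part of mixed cells or carried-over reads in the low-level cells was not tested. The sets of all members and of high-level cells are therefore named apart below.

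The 8 genes of the rule are described first, since they chose the cells. PMEL forms the fibrils on which melanin is laid down, and it had at least 5 reads in 98.4% of the members at day 90 and in 60.0% of those on chip b. Over the pooled reads of the cells its level was 1701, 2243, 1805 and 519 CPM at day 60, at day 90 and on chips a and b. In the high-level cells it was 2693, 3091, 2574 and 2357 CPM, with an exact 95% Poisson interval of 2586 to 2803 at day 60. Such intervals cover counting error only and are far narrower than the spread over cells, which at day 90 ran from 272 to 7226 CPM with a median of 2964 CPM. PMEL is among the 8 genes summed for the boundary of 2000 CPM, so its level in the high-level cells partly follows from that choice. The difference between all members and high-level cells of chip b is given as a description only.

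DCT, a dopachrome tautomerase of melanin synthesis, ranged from 339 to 15919 CPM over the 80 high-level day 90 cells, with a median of 3868 CPM. Its level in the high-level cells was 2645 and 4069 CPM at days 60 and 90, and 3940 and 3917 CPM on chips a and b. TYRP1, a melanosomal enzyme, had 357, 1011, 1788 and 2520 CPM in the same order, the day 200 chips standing above days 60 and 90. Like PMEL, it is summed for the boundary that chose these cells. In all members its log2 ratio to day 90 (offset of 5 CPM) was 0.79 on chip a and -0.50 on chip b. TYR, the tyrosinase that starts melanin synthesis, had 360, 285, 187 and 442 CPM, with chip a lowest and chip b highest.

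BEST1, a chloride channel of the basolateral membrane, was detected with at least 5 reads in 1 of the 7 cells at day 60 and in 97 of the 124 at day 90. Its high-level values were 163, 1169, 1206 and 556 CPM. BEST1 (chr11:61950063-61965515, plus strand) overlaps FTH1 on the other strand, and the counting names no strand, so reads of the overlap cannot be assigned with certainty. FTH1 itself was counted at only 10.8 CPM in the day 90 members. RNASE1, a secreted ribonuclease, had 296, 1449, 5180 and 2500 CPM in the high-level cells, and chip a was highest. The other cells had 0.503, 3.01, 35.1 and 30.1 CPM, so the level outside the members was also higher on the day 200 chips.

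RPE65, the isomerase of the visual cycle and a marker of mature RPE, was nearly missing. It had at least 5 reads in 12 of the 124 cells at day 90 and in 0 members of the other 3 chips. MLANA, a melanosome protein, had at least 5 reads in 4 cells at day 90 and in 4 on chip b. The rule was therefore met almost wholly through the other 6 genes. Per kilobase of merged exon (GENCODE 44), which takes reads to cover whole transcripts, levels in the day 90 members were 964 CPM per kb for RNASE1, 611 for PMEL, 391 for DCT, 197 for TYRP1, 96.9 for BEST1, 79.2 for TYR, 5.67 for RPE65 and 1.47 for MLANA.

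**Figure D3:**
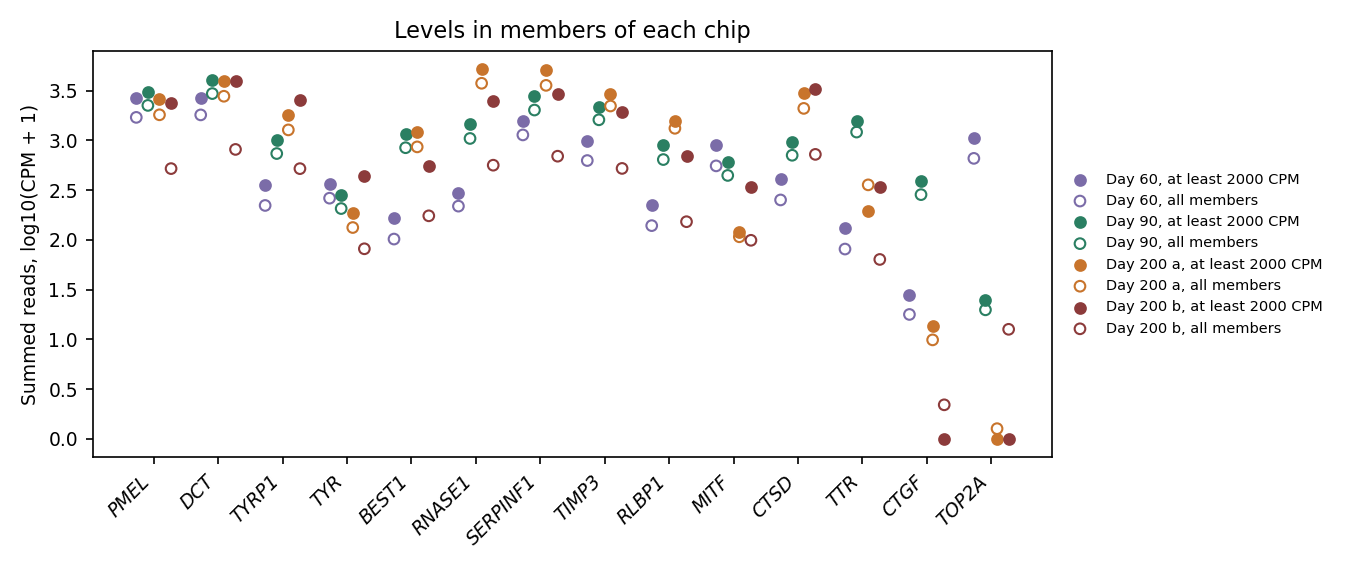
Summed reads of 14 genes as log10(CPM + 1) in all members (open) and in members of at least 2000 CPM (filled), coloured by chip. PMEL itself counts towards the 2000 CPM. Its filled points lie between 2357 and 3091 CPM on all chips, while the open point of chip b is at 519 CPM. CTGF and TOP2A are at or near 0 in the high-level cells of day 200 chip b.

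Members were next set beside the other cells of the same chip. Ratios are log2 after an offset of 5 CPM, and a gene was counted as higher or lower at 4-fold. Because the rule uses this contrast, the counts describe the cells and test nothing. At day 90, 206 of 22005 genes were at least 4-fold higher (0.936% of the genes) and 65 at least 4-fold lower (0.295%), with a median log2 ratio over all genes of -0.07. The same shares were 2.25% and 8.49% at day 60, 4.62% and 16.7% on chip a, and 0.826% and 1.04% on chip b. For the high-level cells alone no share over all genes was computed. Counts of list genes in those cells, given below, therefore have no such baseline.

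Among genes of at least 50 CPM and with reads in at least 20% of the cells of one side, the 15 with the highest ratio at day 90, rule genes left out, were GNGT1, NCCRP1, COL8A1, ELN, PRSS33, ENPP2, BMP7, TRPM1, CNGB3, NPFFR1, SFRP5, SERPINF1, COL8A2, RGR and TTR. Their log2 ratios ran from 5.75 for GNGT1 to 4.37 for TTR. COL8A1, ENPP2 and SERPINF1 are also on the study's RPE list from these same samples. GNGT1, a transducin subunit of rods, spans TFPI2, which lies at chr7:93885396-93890753 on the other strand, and TFPI2 was itself at 911 CPM in the members against 43.3 CPM. Without strand the reads of this pair cannot be told apart. NCCRP1 had 430 CPM in the members and 4.51 CPM in the other cells. The 10 lowest were ONECUT2, CRB1, STMN2, MT1X, ARR3, NSG2, AP002884.3, IGF2, S1PR3 and DCX, of which ONECUT2 (log2 -3.16), STMN2 (-2.54) and DCX (-2.22) are genes of young neurons and ARR3 (-2.42) is the cone arrestin.

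Of the 12 melanosome genes that the rule did not use, 8 were at least 4-fold higher in the day 90 members and 0 lower (median log2 2.42). In all members 5, 8, 4 and 2 of the 12 were higher from day 60 to chip b. Over all genes the higher shares were 2.25%, 0.936%, 4.62% and 0.826% in the same order. In the high-level cells the counts were 5, 8, 4 and 7, with no share over all genes to set beside them. TRPM1, a cation channel of pigment cells, had 185 CPM in the day 90 members against 2.09 CPM in the other cells (log2 4.74), and 0 reads in all day 60 cells. GPNMB, a melanosome glycoprotein, had 598 CPM against 34.9 CPM at day 90, and in the high-level cells 189, 805, 998 and 577 CPM from day 60 to chip b. GPR143, the receptor on melanosomes, had 150 CPM against 13.9 CPM. SLC45A2, a melanosome transporter, had reads in 7 of the 124 day 90 members, at 6.14 CPM, and in 0 members of the other chips.

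Of 11 genes of the visual cycle outside the rule, 4 were at least 4-fold higher at day 90 and 0 lower. RLBP1, the retinaldehyde carrier shared with Müller glia, had 640 CPM in the day 90 members against 27.2 CPM (log2 4.33). Its high-level values were 223, 888, 1558 and 691 CPM. RGR, a retinal opsin, had 60.1, 261, 597 and 98.8 CPM. LRAT, which makes retinyl esters, had 13.6, 165, 193 and 80.9 CPM, and at day 90 it had a read in 39 of the 80 high-level cells. For both RGR and LRAT chip a was highest and the 2 day 200 chips did not lie on the same side of day 90. TTR, the carrier of thyroxine and retinol, had 1552 CPM in the high-level cells at day 90. It came from 38 of 80 cells, 31.4% of it from 1 cell, and without that cell the level was 1095 CPM. Among the high-level cells of each day 200 chip, 1 cell held every TTR read. Over all members, 3 cells on each of these chips had TTR reads. The top cell held 61.8% of them on chip a and 96.8% on chip b.

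MITF stood at 443 CPM in the day 90 members against 19.9 CPM (log2 4.17). In the high-level cells it was 894 and 603 CPM at days 60 and 90, and 118 and 339 CPM on chips a and b. Every one of the 5 high-level day 60 cells had MITF reads (252 to 1267 CPM, median 1018), against 5 of 10 such cells of chip a and 5 of 7 of chip b. TFEC, a factor related to MITF, had 358 CPM in the day 60 members, all of it from 1 low-level cell. OTX2, which is shared with photoreceptors, differed little between members and other cells at day 90 (583 and 496 CPM). Of 8 neural retina regulators, 3, 0, 3 and 0 were at least 4-fold lower in all members from day 60 to chip b. Over all genes the lower shares were 8.49%, 0.295%, 16.7% and 1.04% in the same order. In the high-level cells the counts were 3, 2, 5 and 3, with no share over all genes to set beside them. The median log2 ratio at day 90 was -0.77 in all members and -1.46 in the high-level cells.

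Most of the secreted factors on the list were higher in the members. Of the 15 that the rule did not use, 13 were at least 4-fold higher at day 90, with a median log2 ratio of 3.70, and the same 13 of 15 count was reached in the high-level cells (median 4.11). In high-level cells 10 of 15 passed on each day 200 chip, and in all members of chip b 4 passed. The high-level counts have no share over all genes beside them. SERPINF1, TIMP3, ENPP2 and SFRP1 are also on the study's RPE list from these same samples, so they are no independent evidence. SERPINF1, which encodes the neurotrophic factor PEDF, had 1548, 2761, 5082 and 2952 CPM in the high-level cells. TIMP3, an inhibitor of matrix proteases, had 995, 2180, 2924 and 1930 CPM. SFRP1, a Wnt antagonist, had 377, 1657, 1666 and 2709 CPM. SFRP5, of the same family, had 0 reads at day 60 and 194, 318 and 331 CPM afterwards. CST3, cystatin C, had 1839, 929, 2244 and 2560 CPM, lowest at day 90. BMP7 had 209, 784, 806 and 493 CPM, and WFDC1, also on the list, had 16.5 CPM in the day 90 members against 28.6 CPM.

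Among 13 channels and transporters outside the rule, 5 were at least 4-fold higher at day 90. KCNJ13, a potassium channel of the apical membrane, had 60.8 CPM against 6.18 CPM, and 205 CPM on chip a. SLC2A1, the glucose transporter, had log2 ratios of 1.23, 2.23, 2.25 and 0.44 in all members from day 60 to chip b. Its levels in the high-level cells were 2153, 1786, 2504 and 2385 CPM. SLC16A8, the lactate transporter of the RPE, had 21.8 CPM against 0.656 CPM at day 90 and 0 reads in the members of day 60 and chip b. Of 12 genes of outer segment uptake and the lysosome, 2 passed at day 90, CTSD (log2 2.55) and ITGAV (log2 2.63). CTSD, the lysosomal protease cathepsin D, had 406, 951, 2956 and 3273 CPM in the high-level cells, while the other cells had 55.5, 116, 141 and 140 CPM. MERTK, the receptor for outer segments, had 35.1 CPM against 10.1 CPM.

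Of 12 genes of epithelial junctions and cytoskeleton 5 passed at day 90. CLDN19, the claudin of RPE tight junctions, had 61.7 CPM against 2.76 CPM at day 90, and 90.7, 85.6, 161 and 143 CPM in the high-level cells. EZR, ezrin of the microvilli, had 545, 713, 735 and 767 CPM. For the matrix, COL8A1 had 254, 1867, 1464 and 1397 CPM, and ELN, elastin, 877, 781, 416 and 273 CPM. COL8A2 had 388, 265, 299 and 0.749 CPM, the last from 1 of 7 cells, whereas 66 of the 80 high-level day 90 cells had reads. Of 13 matrix genes 3 passed at day 90 (COL8A1, which is also on the study's RPE list, COL8A2 and ELN). None of the 8 iron genes passed there.

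**Figure D4:**
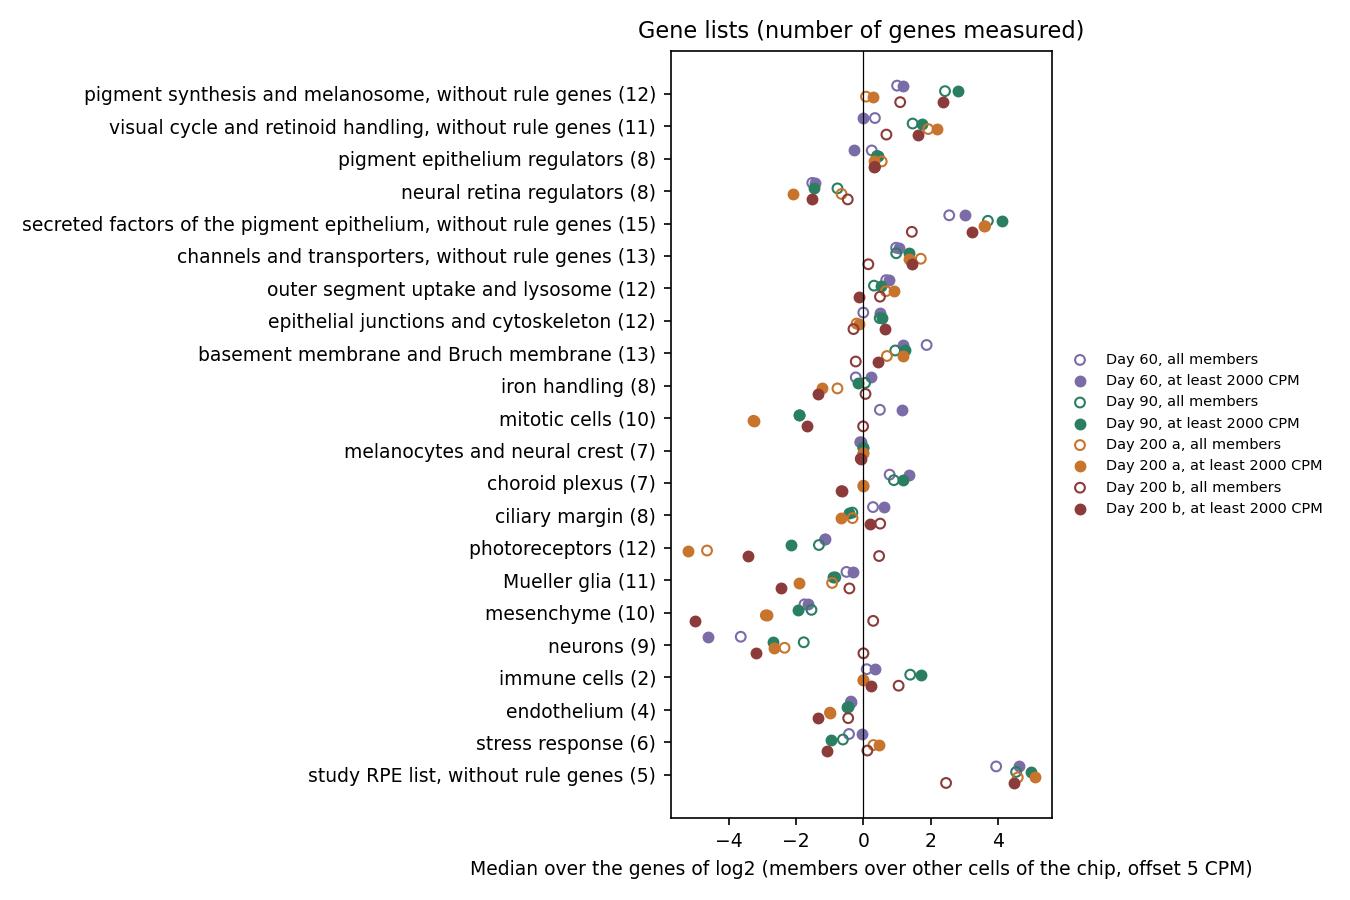
Median over each list of the log2 ratio of members to the other cells of the chip (offset of 5 CPM), for all members (open) and for those of at least 2000 CPM (filled); the number of genes measured stands in brackets and rule genes are left out. The photoreceptor, mesenchyme and neuron lists of chip b lie near 0 for all members (0.47, 0.29 and 0.00) and at -3.42, -5.02 and -3.20 for the high-level cells.

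Markers of other pigmented or secretory cells were checked in the same way. Of 7 melanocyte and neural crest genes measured, no member had 3 with at least 5 reads (0 of 175, up to 2.09%), PAX3 and MIA had 0 reads in all members, and ERBB3 was at 0.701 CPM or less. S100B, on the same list, had 49.6 CPM against 14.6 CPM at day 90. In the high-level cells of chip a, 2 of the 7 genes were at least 4-fold higher than in the other cells, S100B (log2 4.08) and KIT (log2 2.41), the receptor of melanocyte precursors. EDNRB, on the same list, was at least 4-fold lower there (log2 -2.56), and the list median was 0. No share over all genes stands beside these high-level counts. SOX10 and FOXD3 were not analysed here. At least 3 choroid plexus genes passed in 5 of the 124 day 90 members, all of high level. Of 7 such genes measured, the chloride channel gene CLIC6 (log2 2.62) and the bicarbonate transporter gene SLC4A5 (log2 2.24) were over 4-fold higher at day 90. That list's median was 0.90, with MSX1 at 1.41, FOLR1 at 0.90, PRLR at 0.29, HTR2C at 0.08 and LMX1A at -1.66. On the ciliary margin list 2 of 8 genes were over 4-fold higher, TFPI2 (log2 4.25) and HSD17B2 (log2 3.19). The list's median was -0.33, with ZIC1 at -1.55, CPAMD8 at -1.03, AOC2 at -1.02 and COL9A1 at -0.84, and 45 of the 175 members had 3 genes of that list with at least 5 reads. The Müller glia list passed in 170 of the 175 members of all chips and in 84.2% of the other cells of day 90. Most cells of both sets passed, but the sets cover unlike days, so the shares are not compared. No member had 3 of the 4 endothelial genes measured. Only 2 immune genes were measured, so that list could not be passed, and of these CSF1R had 25.4 CPM in the day 90 members against 0.284 CPM. At day 90, 4 of 9 neuron genes, 2 of 10 mesenchyme genes and 1 of 12 photoreceptor genes were at least 4-fold lower in all members. The counts in the high-level cells were 6, 5 and 6, with no share over all genes to set beside them. The stress list passed in 93 of the 175 members, and its median log2 ratio at day 90 was -0.61. No share of other cells stands beside the choroid plexus, ciliary margin and stress counts, so they are not read as high or low. Mitochondrial reads had a median of 5.26% in the day 90 members against 3.90% in the other cells, and 16.9% in the 7 high-level cells of chip b.

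Genes of dividing cells were counted with no share of other cells beside the counts, so these are not read as high or low. At least 3 mitotic genes had at least 5 reads in 2 of the 5 high-level day 60 cells, in 4 of 80 at day 90 and in 0 on both day 200 chips. Among low-level cells, 2 of 44 at day 90 and 1 of 23 on chip b passed. TOP2A, a topoisomerase of dividing cells, had 1064 CPM in the high-level day 60 cells, but 91.8% of its reads came from 1 cell. CDK1, the mitotic kinase, had 383 CPM from 3 of the 5. Against the other day 60 cells, 2 of the 10 mitotic genes were at least 4-fold higher in these high-level cells. They were CDK1 (log2 2.52) and PCNA (log2 2.09), and the list median was 1.15. No share over all genes stands beside this count, and in all day 60 members 0 of the 10 passed. At day 90, 5 of the 10 mitotic genes were at least 4-fold lower in members than in the other cells. A TOP2A read was found in 13.7% of the day 90 members and in 18.1% of the other cells. For CDK1 the shares were 14.5% and 8.57%.

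The day 200 members were finally set beside those of day 90, and a gene was counted where both day 200 chips differed from day 90 by at least 2-fold in the same direction. In all members 418 of 21392 genes (1.95%) were higher and 1291 (6.03%) lower. In the high-level cells the numbers were 379 of 20147 (1.88%) and 3413 (16.9%), where 10 and 7 cells stand against 80. A gene read in few cells is easily missed in so small a group. At 50000 reads a cell the median number of genes read was 1893 in the members of chip a, against 3104.5 at day 90 and 3026.5 on chip b. The median share of mitochondrial reads in the high-level cells was 16.9% on chip b against 6.13% at day 90. The part of these differences in the counts of lower genes was not tested.

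The 10 genes with the highest pooled ratio were GPX3, TF, TGM2, ENSG00000271430, GPR158, IGF2, MGP, WIF1, COPG2 and CRABP1, with log2 ratios from 5.99 to 2.84. TF, transferrin, went from 24.9 CPM at day 90 to 2443 CPM on chip a, but 99.2% of those reads came from 1 low-level cell, and the high-level cells had 26.6, 8.47 and 30.0 CPM. MGP, a matrix gene, had 224 CPM at day 90. Chip a had 0.270 CPM, and chip b had 3217 CPM, although its high-level cells had 5.99 CPM. GPX3, an extracellular peroxidase, had 6.84, 1104 and 573 CPM in all members and 2.79, 88.6 and 15.7 CPM in the high-level cells, but in the high-level cells 76.5% of the chip a reads and 85.7% of the chip b reads came from 1 cell each. Without that cell the chip b level was 2.61 CPM, below that of day 90, and the chip a level 23.4 CPM. The other cells had 63.1 CPM at day 90 and 2107 and 530 CPM on the day 200 chips. COPG2 overlaps MEST on the other strand, so its reads are uncertain.

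Among the 10 lowest were CTGF, SPATA13, DUSP6, C11orf96, NUDT1, C15orf40, PRDX1, HIST1H1C and ATP6V1C2. CTGF, a matricellular growth factor, had 386 CPM in the high-level cells at day 90, with reads in 53 of 80 cells. On chip a it had 12.7 CPM, from 2 of 10 cells, and on chip b 0 reads. The other cells had 17.0 CPM at day 90 and 16.0 and 41.8 CPM at day 200. DUSP6, a phosphatase of the ERK pathway, had 112 CPM in the high-level cells at day 90 and 0 reads on both day 200 chips. PRDX1, a peroxiredoxin, had 237, 21.6 and 8.99 CPM in the high-level cells, and the other cells 102, 39.3 and 40.2 CPM, also lower at day 200.

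In the high-level cells CTSD was higher on both day 200 chips than at day 90 (log2 1.63 and 1.78), and so was CST3 (1.27 and 1.46). In the other cells the ratios were 1.37 and 1.99 for CST3 and 0.26 and 0.25 for CTSD. In all members the chip b ratio of CTSD was 0.03. MITF had log2 ratios of -2.30 and -0.82 on chips a and b in the high-level cells, and of -2.01 and -2.12 in all members.

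Within the 80 high-level cells of day 90, levels varied widely and the genes were only partly coupled. The closest pair of 19 genes compared was BEST1 and SERPINF1, with a Spearman correlation of 0.56 of the log2(CPM + 1) values. BEST1 also went with TRPM1 (0.52) and with RNASE1 (0.43). These are correlations across cells of 1 chip that share libraries and depth, and BEST1 itself had a Pearson correlation of -0.28 with the depth of the cell. They are given as a description.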

How the data were processed

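The authors trimmed reads with Trimmomatic 0.33, aligned them with STAR 2.4.0 to GRCh38.p7 and counted them with HTSeq 0.6, as the submitters' processing notes give it (the study's methods name a point release of that HTSeq version). The deposited table holds raw read counts per gene and cell, without molecular identifiers, for 1976 cells from 79 chip columns. Duplicate reads of 1 molecule therefore count more than once, the strand setting of the counting is not given in the sources used here, and intervals cover counting error only. The 166 rows that name no gene (0.0292% of reads) and the GFP-Spike row were left out of library sizes.

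Cells were chosen by their reads in 8 genes, and the members and gene lists were chosen with earlier results of these data known. Counts were summed per chip and divided by all gene reads to give CPM. Cells are not replicates and days 60 and 90 have 1 chip each, so no test was made and no p-value is given. Shares have exact Clopper-Pearson and levels exact Poisson 95% intervals. Ratios used an offset of 5 CPM. Named genes were the rule genes, examples from the lists, and the 15 highest and 10 lowest ratios at day 90 and the 10 highest and 10 lowest of day 200 over day 90, where one side had at least 50 CPM and a share of at least 20% of cells with reads. Doublets were called per chip with scrublet in scanpy 1.11.5 and not removed. Cells of a chip use 40 row barcodes that recur in its columns (38 at day 60). Positions are from GENCODE 44 on GRCh38, and promoters from RefSeq on GRCh38.p14. Scripts were tested on simulated data and ran in Python 3.11.15 with pandas 2.3.3, NumPy 2.4.6, SciPy 1.17.1 and matplotlib 3.10.9. A few genes that met these rules are not reported here. Other read minimums, numbers of rule genes, depths, filters, offsets and left-out chips were tried as alternatives.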

Additional observations from a re-analysis of the deposited data

Results flagged for a closer look

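DUSP6 was higher in members than in the other cells at day 90 (log2 1.64) and lower on day 200 chips a (-2.63) and b (-1.82). It is given because the direction at day 90 was opposite to that on both day 200 chips, and the difference was not tested.

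The row named GFP-Spike, which enters no comparison, had reads on the day 200 chips only. On chip a 6 of the 14 members had such reads (183 reads in all), against 45.9% of the other cells, and on chip b 12 of the 30 members (514 reads), against 23.6%. No cell of day 60 or 90 had any.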

How the results depend on the processing

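Of 73 values of 7 results under other settings, 38 stayed near the reported value (a share within its exact 95% interval, a count of genes within 1.5 times) and 35 moved. The share at day 60 became 4.50% with at least 2 rule genes. At day 90 it became 36.5% with 1 read in place of 5, 14.2% with 10 reads, 25.7% with 2 rule genes, 15.0% with 4, 14.0% with cells thinned to 50000 reads and 22.2% with a minimum depth and a maximum share of mitochondrial reads. At day 200 it became 16.4% with 1 read, 12.9% with 2 rule genes, 2.99% with 4 and 3.39% when thinned, and 3.93% to 7.87% with 1 chip left out. The last 3 settings were chosen after seeing the data. With members of at least 2000 CPM the shares were 12.1% at day 90 and 2.31% at day 200, and with 4 of the 5 genes outside the rule 4.21% at day 200. The third left out members with photoreceptor or mesenchyme genes.

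Genes higher and lower in day 90 members (206 and 65) became 521 and 662 with an offset of 1 CPM and 90 and 9 with 20 CPM. The lower count became 23 among genes of at least 50 CPM, 100 with 4 rule genes, 238 with members of at least 2000 CPM and 258 without the mixed members. Between day 200 and day 90, 418 and 1291 became 647 and 3521 with an offset of 1 CPM and 142 and 211 with 20 CPM. The lower count became 198, 2704, 3413 and 2087 under the same 4 settings in that order. With 1 day 200 chip left out, 2222 to 2312 genes were higher and 2165 to 5377 lower, since 1 chip then had to pass in place of both.

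The log2 ratio of day 200 over day 90 changed sign for TF with 4 rule genes (-0.91) and at 2000 CPM (-0.61), for MGP (-3.93, -5.27, -0.23 without mixed members, and -5.44 to 3.81 with 1 chip left out), and for IGF2 at 2000 CPM (-1.07). With 1 chip left out it ran from -1.41 to 4.51 for TGM2, from -2.25 to 0.028 for BEST1 and from -0.91 to 2.24 for MLANA, the sign changing without chip b. The causes were not tested. No paired analysis was possible because no result comes from a test.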
